A study of Arabidopsis thaliana with 24 samples.

Results

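GRX480 (AT1G28480, also listed as ROXY19) encodes a glutaredoxin of Arabidopsis thaliana that binds TGA transcription factors. It is 1 of 13362 genes that a probe set of their own names on the arrays used here. The gene was chosen by measured values of the spray arrays: its rise after salicylic acid (SA) was kept in the tbf1 mutant while its level after water spray differed between the genotypes. All GRX480 values that hold spray arrays are therefore given as a description, without a test, while other genes were also tested there. Tests of GRX480 are given for comparisons within the infiltration arrays. The gene was picked with results of these data known, however, so these p-values may not be fully independent of the choice.

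The study measured RNA from mature leaves of wild type plants (Columbia-0) and of the tbf1 mutant, whose allele the labels do not name. TBF1 resembles heat shock factors and controls transcription in plant immunity. Plants of both genotypes were grown on soil for 3 weeks at 22 °C, with 16 h of light and 8 h of dark. In each genotype 1 group was sprayed with water and 1 with 1 mM SA, both sampled after 6 h, and 1 group was infiltrated with water and 1 with 10 µM elf18, both sampled after 2 h. Each of the 8 groups had 3 arrays that the labels call biological replicates; how many plants stood behind an array is not stated, so p-values measure only the spread between these arrays.

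Glutaredoxins are small oxidoreductases that reduce disulfides with electrons from glutathione. The CC-type class, to which GRX480 belongs, is found only in land plants, and several of its members bind TGA factors, which recognise the as-1 element of promoters. SA is a defence hormone that acts through NPR proteins and TGA factors, and the induction of GRX480 by SA is known to depend on TGA factors. GRX480 made in excess is known to lower the jasmonate-induced expression of the defensin gene PDF1.2. The peptide elf18 is the start of bacterial elongation factor Tu and is perceived by the receptor EFR at the cell surface.

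The deposited values are taken to be log2 levels, and each probe set had been centred on its median over the 24 arrays. A value of 0 is thus the gene's own median, a difference of 1 is a doubling of signal, and neither the brightness of GRX480 nor its level against another gene can be read from them. Whole leaf tissue was sampled, so more RNA per cell and more cells with the transcript cannot be told apart. The marker lists could not check the tissue, since the centred values hold no absolute level and only 3 of the 20 listed markers of leaf, guard cell, root and flower were named by a probe set. They were RCA of the mesophyll, whose group means spanned 1.33, and the stomatal lineage genes FMA and SPCH, which spanned 0.88 and 1.04.

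The lowest level of GRX480 was found in wild type leaves sprayed with water, with -3.52, -3.63 and -3.45 in the 3 arrays (mean -3.53 ± 0.09, SD, n = 3). Wild type leaves sprayed with SA had 0.49, 0.29 and 0.21 (0.33 ± 0.14). All SA arrays of the wild type thus lay far above its water spray arrays, and the arrays of each group lay close together.

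In tbf1 the water spray arrays had -1.25, -1.56 and -1.60 (-1.47 ± 0.19, SD, n = 3), of which the first was the highest. After SA the mutant had 2.24, 2.15 and 2.26 (2.22 ± 0.06). These were the highest values of all 24 arrays, and in each spray treatment every tbf1 array was above every wild type array.

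Infiltration with water gave 0.54, 0.51 and 0.55 in wild type (0.53 ± 0.02, SD, n = 3). In tbf1 the same treatment gave -1.36, -1.41 and -1.60 (-1.46 ± 0.13). Here the order of the genotypes was the opposite of that after water spray, with every tbf1 array below every wild type array.

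After elf18 the wild type arrays had 0.94, 0.92 and 0.86 (0.91 ± 0.04, SD, n = 3). The tbf1 arrays had -0.35, -0.37 and -0.21 (-0.31 ± 0.09). The genotypes again did not overlap, and tbf1 was again the lower of them.

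**Figure D1:**
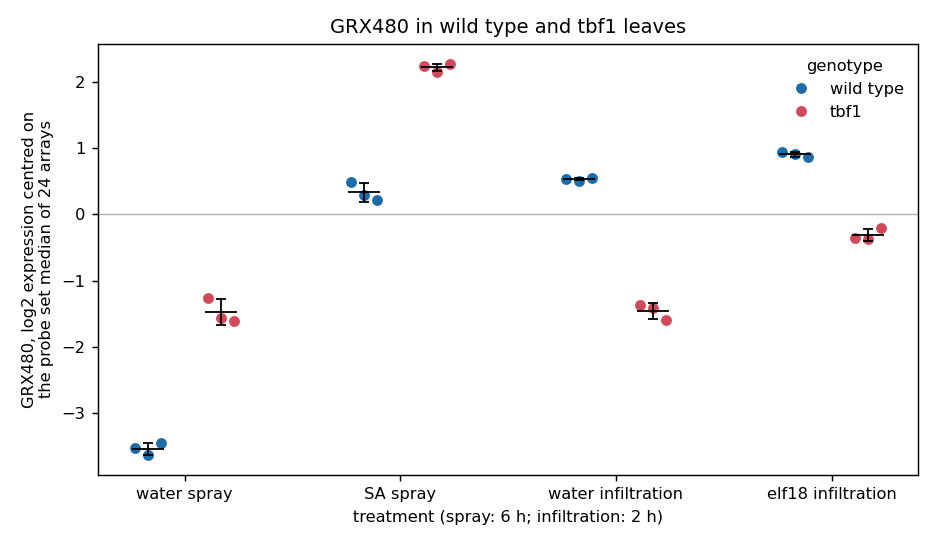
Each point is 1 array, placed by treatment (x axis) and GRX480 level (y axis, log2, centred on the probe set's median over 24 arrays), with wild type in blue and tbf1 in red; bars give the mean and SD of 3 arrays. The tbf1 points lie above wild type in both spray treatments (means -1.47 against -3.53 and 2.22 against 0.33) and below it in both infiltration treatments (-1.46 against 0.53 and -0.31 against 0.91).

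From the lowest to the highest mean, the order was wild type water spray, tbf1 water spray, tbf1 water infiltration, tbf1 elf18, wild type SA, wild type water infiltration, wild type elf18 and tbf1 SA. Among neighbours in this order only the water spray and water infiltration groups of tbf1 overlapped, with means 0.02 apart. The next smallest gap, 0.20 between wild type after SA and after water infiltration, was narrow, but the highest SA array at 0.49 stayed below the lowest infiltration array at 0.51. The group means spanned 5.75, which was rank 61 of 22746 probe sets, whose median span was 1.02. The pooled SD within groups was 0.11, against a median of 0.17 over all probe sets.

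Among the infiltration arrays, GRX480 was lower in tbf1 than in wild type after water, by 1.99 ± 0.10 (log2, SE, n = 3 in each group, 3.97-fold, limma adjusted p = 1.27e-12). In this comparison 20.6% of probe sets were called at an adjusted p below 0.05, and 8.55% were called as lower in tbf1. GRX480 had the rank 33 among the most negative differences of the 22746 probe sets. After elf18 it was lower in tbf1 by 1.22 ± 0.10 (2.32-fold, limma adjusted p = 4.13e-09), where 16.1% of probe sets were called as lower. The arrays did not overlap in either comparison, and the exact permutation test, two-sided, gave p = 0.1, the smallest value that 3 against 3 arrays allow.

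The elf18 response was larger in the mutant. In tbf1 GRX480 rose by 1.14 ± 0.10 (log2, SE, 2.21-fold, 95% interval 0.93 to 1.36, limma adjusted p = 2.60e-09), in a comparison where 18% of probe sets were called as higher. In wild type it rose by 0.37 ± 0.10 (1.29-fold, 95% interval 0.15 to 0.59, limma adjusted p = 0.00428), while 31.2% of probe sets were called as higher and GRX480 had rank 6219 of 22746. The difference between the responses, tbf1 minus wild type, was 0.77 ± 0.15 (95% interval 0.47 to 1.08, limma adjusted p = 0.000679), with 9.82% of probe sets called as more positive and 5.67% as more negative. The exact permutation test gave p = 0.1 for each of the responses.

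The rise in wild type depended on the processing. It was 0.70 relative to the mean of 6 reference genes, where it was still called. Of these 6 genes, however, 4 fell with elf18 in wild type and 1 rose. Their mean changed by -0.33, and the median change of all 6 was -0.73. The rise was 0.094 after quantile normalization (adjusted p = 0.439, limma), which did not pass the test. That normalization was run on values already centred per probe set. It thus gave all arrays the same distribution of deviations from the medians, not of signal levels. The lost call therefore does not show how normalization of signal levels would act. With an index of RNA quality as a covariate the rise was 0.67 (adjusted p = 0.139, limma), which did not pass either. There the value was larger than as deposited, but its SE was 0.30 against 0.10. The difference between the responses was still called in each of these settings, with 0.54 relative to the reference genes (adjusted p = 0.015, limma) and 1.32 after quantile normalization.

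**Figure D2:**
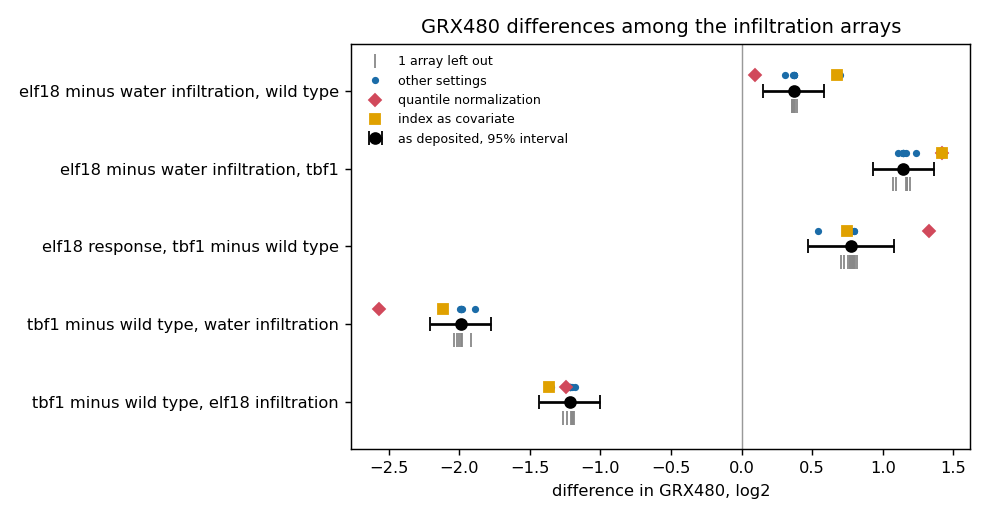
Differences in GRX480 (x axis, log2) for the 5 comparisons tested among the infiltration arrays (y axis). Black points with bars are the values as deposited with 95% intervals, grey ticks leave out 1 array, and coloured symbols are other settings; only the elf18 response of wild type, at 0.37, came near 0, with 0.094 after quantile normalization.

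The RNA quality index compared signal at the 5' and 3' ends of the actin, GAPDH and ubiquitin transcripts, as the 5' value minus the 3' value averaged over 6 control pairs. With elf18 its mean fell by 1.29 in wild type, against 1.19 in tbf1. Between genotypes it was higher in tbf1 by 0.54 after water infiltration and by 0.64 after elf18. After water spray it was lower in tbf1 by 2.44, from 0.78 in wild type to -1.67, and after SA it was lower by 2.01. The spray arrays of tbf1 thus stood apart in this index, from -1.83 to -1.34, and its part in the GRX480 values was not tested beyond the covariate fit. With the index as a covariate the water infiltration difference between genotypes was -2.12 and the elf18 difference -1.37. That fit was less precise for several comparisons. The SE for GRX480 was 0.55 and 0.46 between genotypes after water spray and SA, against 0.10 as deposited. For elf18 in wild type and tbf1 it was 0.30 and 0.28. A call lost in that fit therefore does not show a smaller difference.

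**Figure D3:**
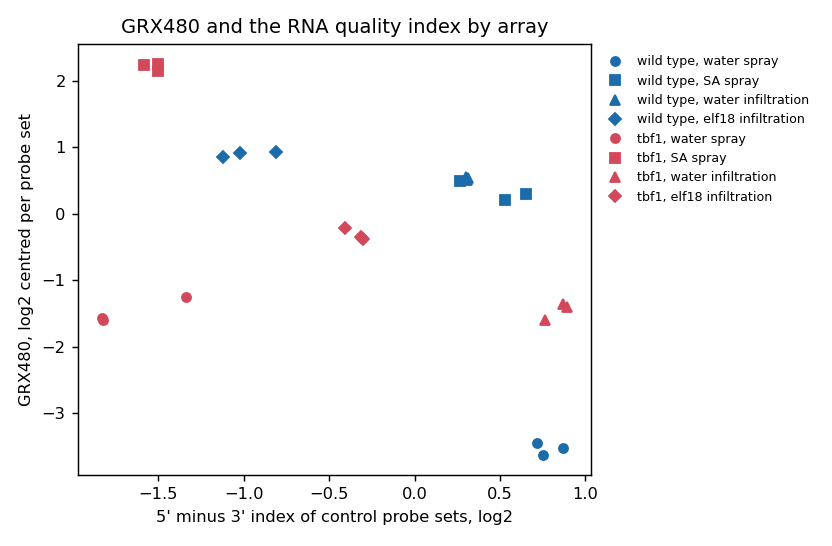
GRX480 level (y axis, log2, centred) against the 5' minus 3' index of control probe sets (x axis, log2) for each of the 24 arrays, with symbols for treatments and colours for genotypes. The tbf1 spray arrays share the lowest index values, from -1.83 to -1.34, at GRX480 levels near -1.47 after water and 2.22 after SA.

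The values of the spray arrays, on which the gene was chosen, are these. SA raised GRX480 by 3.86 ± 0.10 in wild type (log2, SE, 14.6-fold) and by 3.69 ± 0.10 in tbf1 (12.9-fold), the 11th and 5th most positive of 22746 probe sets. The difference between these rises was -0.18 ± 0.15, a small value that the choice of the gene fixed, and it was 0.42 ± 0.14 after quantile normalization. In tbf1 the gene was higher than in wild type by 2.06 ± 0.10 after water spray (4.18-fold) and by 1.89 ± 0.10 after SA (3.69-fold). As background, 39.9% of probe sets were called as higher in tbf1 after water spray and 31.1% after SA.

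Both water treatments can be set side by side, though they differ in the way of application and in time. Water infiltration minus water spray was 4.07 ± 0.10 in wild type (log2, SE, 16.8-fold), which is above the 3.86 measured for SA against the same spray arrays. In tbf1 it was 0.02 ± 0.10, with -0.91 after quantile normalization and -0.57 with the index as a covariate. The genotype difference thus went from 2.06 after water spray to -1.99 after water infiltration, a change of -4.05 ± 0.15. These comparisons share the water spray arrays and are not independent of each other. Over all probe sets 35.8% were called between the water treatments in wild type and 75.4% in tbf1.

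GRX480 was next set against its own class. Of 21 CC-type glutaredoxin genes, a probe set was named for 17, here called measured, and the 16 besides GRX480 are counted. Genes without a named probe set may be among the 8730 probe sets that had no gene name. After SA in wild type 1 of the 16 rose and 9 fell, in a comparison where 32% of probe sets were called, 15.1% as higher and 16.8% as lower. Their median was -0.43, against -0.02 over all probe sets. The gene that rose was AT5G11930, by 0.60 ± 0.12 (log2, SE, adjusted p = 0.000242, limma). The falls included AT1G06830 at -1.27 and AT3G62950 at -1.21.

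In tbf1 7 of the 16 rose after SA and 1 fell, where 38.9% of probe sets were called, 19.6% as higher and 19.3% as lower, and the median was 0.12. The SA response was more positive in tbf1 for 8 and more negative for none of them, against 29.3% of probe sets called, 16.6% as more positive and 12.7% as more negative. The largest difference was that of AT4G15660, which fell by 0.49 in wild type and rose by 1.82 ± 0.12 in tbf1. Its neighbours on chromosome 4, AT4G15680, AT4G15690 and AT4G15700, had differences of 1.39, 1.43 and 1.38. These genes lie side by side and are close in sequence, so their probe sets may share signal. AT4G15660 was also lower in tbf1 after water spray, at -1.67, and above wild type after SA by 0.64.

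After elf18 11 of the 16 rose and 1 fell in wild type, and 11 rose and 1 fell in tbf1, with medians of 0.62 and 0.46. Over all probe sets 58.1% were called in wild type, 31.2% as higher and 26.9% as lower, and 41.7% in tbf1, 18% as higher and 23.8% as lower. AT1G06830 rose most, with 1.64 ± 0.10 in wild type and 1.21 ± 0.10 in tbf1. Its elf18 response was lower in tbf1, by -0.44 ± 0.14 (adjusted p = 0.038, limma), the single call among the 16 in the values as deposited. Which member was called depended on the setting. The AT1G06830 call held in 3 of the 12 fits that left out 1 array, those without array 1 of wild type or array 2 or 3 of tbf1 after water infiltration. It was lost with array medians subtracted (-0.41, adjusted p = 0.0592, limma) and after quantile normalization (-0.058, adjusted p = 0.845, limma). AT4G15680, at 0.41 in the values as deposited and not called, was called as higher with array medians subtracted, at 0.43. The member that fell, AT2G30540, was at -0.51 in wild type and -0.52 in tbf1. ROXY1 and ROXY2, which act in petal and anther development, were at 0.57 and 0.80 in wild type; ROXY1 at 0.24 was not called in tbf1, while ROXY2 rose there by 0.50. With the index as a covariate 5 and 4 of the 16 were called for elf18 in wild type and tbf1. The SE for GRX480 was 0.30 and 0.28 in that less precise fit, against 0.10 as deposited.

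**Figure D4:**
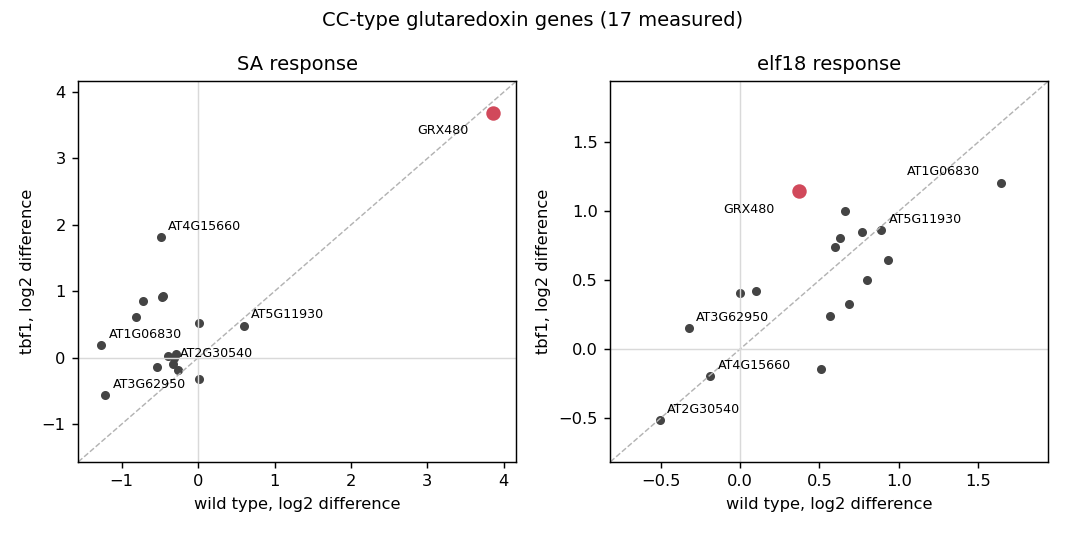
SA response (left) and elf18 response (right) of the 17 measured CC-type glutaredoxin genes, in wild type (x axis) and tbf1 (y axis), as log2 differences; the dashed line marks equal responses. GRX480 (red) lies near the line at 3.86 and 3.69 for SA and above it at 0.37 and 1.14 for elf18, while AT4G15660 was at -0.49 and 1.82 for SA.

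AT5G11930 shared the turn of the genotype difference with GRX480. It had -0.57, -0.37 and -0.46 in wild type and 1.01, 1.22 and 1.08 in tbf1 after water spray, a difference of 1.57 ± 0.12 (log2, SE, limma adjusted p = 5.11e-11). After water infiltration it had -0.34, -0.12 and -0.29 in wild type and -0.85, -0.94 and -1.13 in tbf1, a difference of -0.73 ± 0.12 (limma adjusted p = 5.61e-05). The genotypes did not overlap in either treatment and stood in opposite orders. Its elf18 rises of 0.89 and 0.86 were alike in size, however, with a difference of -0.03 ± 0.17 (limma adjusted p = 0.94). AT4G33040, another CC-type member, also turned, over smaller differences. Its means were 0.01 in wild type and 0.54 in tbf1 after water spray, and -0.32 and -0.80 after water infiltration. The arrays of the genotypes did not overlap for AT4G33040 in either water treatment.

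Over all 16, 4 were higher and 7 lower in tbf1 after water spray, 12 higher and 1 lower after SA, 1 higher and 2 lower after water infiltration, and 6 higher and 5 lower after elf18. As background, 68.8% of probe sets were called after water spray, 39.9% as higher and 28.8% as lower in tbf1, and 58.1% after SA, 31.1% as higher and 27% as lower. After water infiltration 20.6% were called, 12% as higher and 8.55% as lower, and after elf18 36.9%, 20.8% as higher and 16.1% as lower. The balance after water spray turned to 7 higher and 4 lower relative to 6 reference genes, 4 of which were themselves lower in tbf1 there and 1 higher. With the index as a covariate, none of the 16 was called between genotypes after water spray, 2 after SA and 2 after elf18. That fit raised the SE, for GRX480 from 0.10 to 0.55 after water spray, 0.46 after SA and 0.18 after elf18. The share of all probe sets called in that fit is not given here, so these counts do not show smaller differences.

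Between the water treatments, infiltration minus spray, 2 of the 16 were higher and 7 lower in wild type, against 14% and 21.8% of probe sets. In tbf1 7 were higher and 6 lower, against 30.4% and 45%. AT2G30540 was the member most raised by infiltration in both, at 1.71 in wild type and 2.04 in tbf1. AT5G11930 was at 0.22 in wild type, which did not pass the test, and at -2.08 in tbf1, whereas GRX480 was at 4.07 and 0.02. With the index as a covariate 1 of the 16 was called in tbf1, in a fit where the SE for GRX480 was 0.57 against 0.10 as deposited.

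Glutaredoxins of the other classes, which are found beyond plants too, had 5 of 10 listed genes measured. After SA 3 rose and 1 fell in wild type, against 15.1% and 16.8% of all probe sets, and all 5 rose in tbf1, against 19.6%. AT1G77370 rose by 0.38 ± 0.09 in wild type and 1.90 ± 0.09 in tbf1, and GRXC2 by 0.38 and 1.62. After water spray all 5 were lower in tbf1, from -0.46 to -1.32, against 28.8% of all probe sets; GRX480 was at 2.06. In the same arrays the RNA quality index was lower in tbf1 by 2.44. Of the 6 reference genes 4 were lower and 1 higher there, with a median of -0.54 over all 6. The part of either in these values was not tested. For elf18, AT1G77370 rose by 1.26 in wild type and 1.22 in tbf1, and AT2G20270 was at -1.21 and -0.46.

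The known partners of GRX480 could be followed only in small part. Of the 22746 probe sets, 8730 had no gene name and may include some of these partners. No probe set was named for any of the 10 TGA factor genes, and of 10 genes of the NPR family and its partners only AT4G26120 had one. It rose by 0.72 ± 0.15 with SA in wild type (limma adjusted p = 0.000347) and was at -0.08 in tbf1, a difference of -0.80 ± 0.21 (limma adjusted p = 0.00471). GR1, a glutathione reductase and the only 1 of 9 redox partners measured, rose with SA by 0.61 in wild type and 0.84 in tbf1. GSTU25, a glutathione transferase and the only 1 of 12 TGA-linked detoxification genes measured, was at 0.12 with SA in wild type and at -0.44 in tbf1, and rose with elf18 by 0.48 and 0.37.

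Of 18 genes of SA synthesis, signalling and conversion 4 were measured, and 2 of them rose with SA in wild type and 2 in tbf1, against 15.1% and 19.6% of all probe sets. SAG101, a partner of EDS1 in immunity, rose by 1.27 ± 0.17 in wild type and was at -0.10 in tbf1. BSMT1, a methyltransferase that makes methyl salicylate, was at 0.20 in wild type and rose by 0.84 in tbf1, and UGT74F1, an SA glucosyltransferase, was at 0.16 and -0.19. With elf18, none was called in wild type, against 58.1% of all probe sets, and only SAG101 fell in tbf1, by 0.77, against 23.8%; the others lay between -0.64 and 0.40 in both genotypes. Of 11 SA-induced defence genes 2 were measured, and WRKY6 rose with SA by 1.13 in wild type and 0.49 in tbf1.

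Beside the kept rise of GRX480, UGT76B1, which glucosylates SA, rose by 6.24 ± 0.35 and 3.27 ± 0.35, and the transcription factor gene WRKY53 by 3.03 ± 0.13 and 2.18 ± 0.13. For both, the SA response was lower in tbf1, with differences of -2.97 and -0.85. The water spray arrays of tbf1 lay apart for UGT76B1, at -0.64, -3.02 and -3.04. After water infiltration UGT76B1 did not pass the test between genotypes, at -0.05, and WRKY53 was at -0.59, against -1.99 for GRX480.

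Of 19 jasmonate and ethylene genes 4 were measured, among them defensin genes that GRX480 is known to act on. PDF1.2 had 0.65, 0.37 and 0.34 in wild type and -2.64, -2.09 and -2.80 in tbf1 after water infiltration, a difference of -2.96 ± 0.13 (log2, SE, limma adjusted p = 8.92e-14). It rose with elf18 by 2.12 ± 0.13 in wild type and 4.55 ± 0.13 in tbf1, so that after elf18 it was at -0.53 in tbf1 relative to wild type. In these 12 arrays both PDF1.2 and GRX480 were lower in tbf1 after water and rose more in tbf1 after elf18; the groups are the same arrays, so this is no independent support. With SA, PDF1.2 was at -0.31 in wild type and rose by 1.01 in tbf1.

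PDF1.2b, a close relative whose probe set may share signal, was at -2.47 in tbf1 after water infiltration and rose by 2.46 and 4.19 with elf18. PDF1.4, a defensin-like gene, rose with elf18 by 3.26 and 3.61, with a difference of 0.35 ± 0.20 that did not pass the test (limma adjusted p = 0.29). EIN3, a transcription factor of ethylene signalling, fell with elf18 by 1.60 in wild type and 1.61 in tbf1, and was lower in tbf1 by 2.30 after water spray.

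Over the 8 group means, which share their arrays, few probe sets followed GRX480 closely. Of 22745 others, 14 (0.0616%) had a Pearson correlation above 0.9 and 12 (0.0528%) one below -0.9, and the median was 0.09. The 10 named genes with the highest correlation were AT5G59680 (0.94), AT2G23680 (0.92), AT5G05300 (0.92), AT4G16900 (0.91), AT1G34420 (0.91), AT2G07080 (0.90), AT1G69790 (0.90), TET8 (0.90), AT2G04070 (0.90) and BZIP60 (0.89). AT4G16900 and AT2G07080 hardly varied, with spans of 0.22 and 0.24 over the group means, so their correlations rest on small differences. Only 6 of the 10 were among the first 10 when all 24 arrays were correlated, and 3 with rank correlation over the group means.

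AT5G05300 had the widest span of these, 4.08, and its group means were -2.02, 0.08, 1.88 and 2.06 in wild type after water spray, SA, water infiltration and elf18. In tbf1 they were -0.57, 1.91, -0.37 and -0.21 in the same order. Like GRX480 it was higher in tbf1 after both sprays and lower after both infiltrations, by 1.44, 1.83, -2.25 and -2.27. With elf18 it was at 0.18 in wild type and 0.16 in tbf1, neither past the test, whereas GRX480 rose in tbf1. TET8, a tetraspanin, was lower in tbf1 by 1.01 after water infiltration. For elf18 it was at -0.10 in wild type and 0.66 in tbf1, a difference of 0.76. The genes of this paragraph were picked by correlation over group means that include these arrays. Their likeness to GRX480 is therefore a description and no independent support. Unlike GRX480, TET8 was also lower in tbf1 after water spray, at -0.22 (limma adjusted p = 0.026). Its SA response was more positive in tbf1 by 0.58 (limma adjusted p = 0.000586), against -0.18 for GRX480. BZIP60, which acts in the response to unfolded proteins in the endoplasmic reticulum, was lower in tbf1 by 1.00 after water infiltration and rose with elf18 by 0.85 and 1.04.

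**Figure D5:**
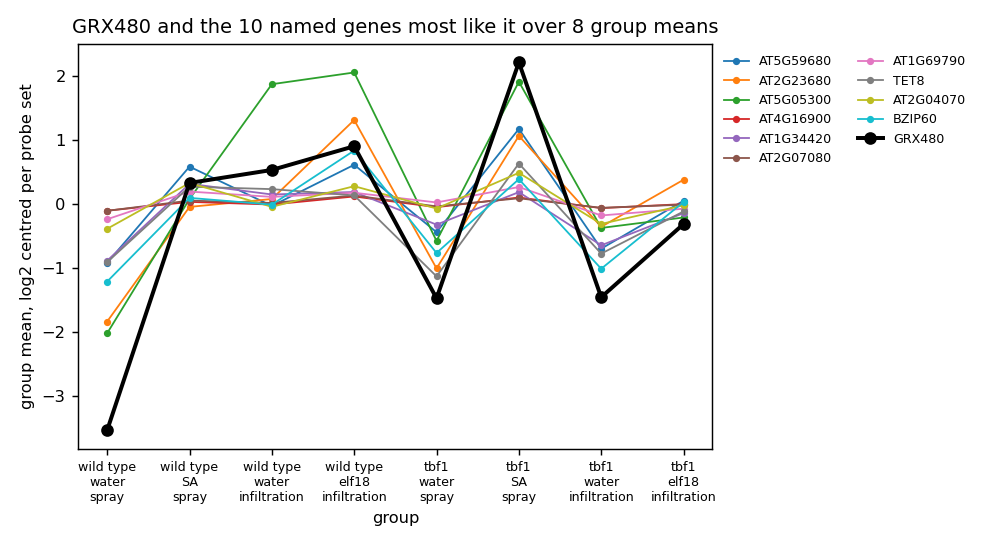
Group means (y axis, log2, centred per probe set) over the 8 groups (x axis) for GRX480 (black) and the 10 named genes whose means correlate most with it. GRX480 runs from -3.53 to 2.22, the genes most like it over narrower spans, of which AT5G05300 has the widest at 4.08.

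Within the CC-type class, the correlations with GRX480 over the 8 group means ran from -0.91 for AT3G62950 to 0.57 for AT5G11930. AT3G62950 fell with SA in both genotypes, by 1.21 and 0.57, and was lower in tbf1 after water spray by 1.15. No CC-type member was thus among the genes most like GRX480, and 1 had nearly the opposite profile.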

How the data were processed

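Leaf RNA was measured on 24 single-channel arrays. The deposited log2 values were made with RMA, per the submitters' processing notes; the log base was read as 2 because RMA works on that scale. From the values, each probe set was centred on its median over the 24 arrays; array medians lay between -0.05 and 0.12. Signal above background is lost with this centring, and the number of arrays limits the precision.

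The 64 control probe sets were left out and 22746 were tested; 13513 had 1 gene name, 503 several and 8730 none. Names were updated through Entrez identifiers to RefSeq (assembly TAIR10.1, 13436 matched). No probe set was named for TBF1, so the mutated gene is not analysed here; the build behind the probe sets is not stated, so coordinates are left out.

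All arrays were fitted in limma 3.58.1 (R 4.3.3), with 1 mean per group, 16 residual degrees of freedom, eBayes and Benjamini-Hochberg adjustment over all probe sets; calls needed an adjusted p below 0.05. The code was tested on simulated data. For named genes, the rule took GRX480, the 10 with the highest correlation over group means, all measured members of 4 lists, and from each other list up to 4 called and 2 uncalled members per response, by size. Of the measured glutaredoxins, AT2G47880, AT3G62960, GRXC1 and AT5G20500 are not described singly above but enter the counts. Members and lists were chosen with earlier results of these data known. Alternatives were quantile normalization, array medians or 6 reference genes subtracted, fewer arrays, robust eBayes, array weights, the 5' minus 3' index, a replicate block, a variance filter and leaving out each array. Quantile normalization was applied to the centred values, since signal levels were not at hand.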

Additional observations from a re-analysis of the deposited data

Results flagged for a closer look

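The elf18 response of GRX480 differed between the genotypes, tbf1 minus wild type, by 0.77 (log2), with a rise in all 3 arrays of tbf1 and of wild type above the water arrays of the same genotype.

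Among the other CC-type glutaredoxin genes, 8 SA responses differed between the genotypes by the interaction test, all of them more positive in tbf1. The differences were 2.31 for AT4G15660, 1.58 for AT1G03020, 1.46 for AT1G06830, 1.43 for AT4G15690, 1.39 for AT4G15680, 1.38 for AT4G15700, 0.65 for AT3G62950 and 0.40 for AT5G18600. The elf18 response of AT1G06830 differed by -0.44, a call that held in 3 of the 12 fits with 1 array left out.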

How the results depend on the processing

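Of the 5 tested GRX480 differences, 4 kept direction and call under every alternative run. The elf18 response of wild type kept its direction but lost its call under quantile normalization of the centred values (0.094). That response also lost its call with the index as a covariate (0.67, SE 0.30 against 0.10 as deposited). Left-out arrays gave 0.36 to 0.39 for it, 1.07 to 1.19 for the elf18 response of tbf1, 0.70 to 0.82 for the difference between them, -2.04 to -1.92 between genotypes after water infiltration and -1.27 to -1.19 after elf18. The causes of these shifts were not tested.

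Untested values moved by more than the replicate SD as follows. Quantile normalization gave 2.87 and 3.29 for the SA rises in wild type and tbf1, 0.42 for their difference, 1.59 between genotypes after water spray, and 3.24 and -0.91 for infiltration minus spray in wild type and tbf1. Reference genes subtracted gave 2.35 and 2.13 between genotypes after water spray and SA, and 4.32 for infiltration minus spray in wild type. The index gave 2.63, 2.36, 4.18 and, for infiltration minus spray in tbf1, -0.57. Left-out arrays gave ranges of 3.79 to 3.92, 3.62 to 3.80, -0.24 to -0.07, 1.95 to 2.13, 1.83 to 1.96, 4.02 to 4.11 and -0.05 to 0.13 for the SA rises, their difference, the genotypes after water spray and SA, and infiltration minus spray.

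Of the 16 other CC-type genes, the index left 0 called between genotypes after water spray (of 11), 2 after SA (of 13), 2 after elf18 (of 11), 5 and 4 for elf18 (of 12 each) and 1 for infiltration minus spray in tbf1 (of 13). The index fit also raised the SE of GRX480 in these comparisons, so its lower counts do not show smaller differences. The variance filter, which tested 11 of the 16 genes, left 5 for the SA interaction (of 8) and 7 between genotypes after elf18. Quantile normalization called 5 after water infiltration (3 as deposited). The elf18 interaction, with 1 called, had 2 with quantile normalization, the index or the replicate block, and 3 with reference genes or array weights. Left-out arrays gave 0 to 1 there: AT1G06830 was called in 3 of 12 fits, AT3G62930 in 2, AT4G15680 in 2 and none in 5. With array medians subtracted the call was AT4G15680, at 0.43, in place of AT1G06830, at -0.41. Of the 10 genes most like GRX480, 6 were shared with correlation over 24 arrays, 3 with Spearman and 5 after quantile normalization.

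Same-numbered arrays of different groups did not deviate together throughout (correlations -0.16 to 0.28, median 0.05, 18 of 84 above 0.1). Differently numbered arrays had a median of -0.03, with 14 of 168 above 0.1. Same-numbered arrays thus tended slightly to deviate together. The labels name no block, so the numbers were not taken as pairs in the main fit. With the replicate block the GRX480 values were the same, 0.37, 1.14 and 0.77 for the elf18 responses and their difference, and no GRX480 call changed.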
